A study of Mus musculus with 5 samples.

Results

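The genes considered here are the antigens by which hair follicle stem cells were sorted and the surface, matrix and transcription factor genes by which the bulge and the neighbouring upper follicle are recognised. The set holds 10 genes, Cd34, Epcam, Ly6a, Lgr5, Lgr6, Lrig1, Plet1, Nfatc1, Ctgf and Postn, chosen by symbol: the sort antigens Cd34, Epcam and Ly6a, and follicle stem cell markers outside the keratin, integrin and homeobox families. All 10 symbols were present among the 30840 features of the deposited table, and all 10 passed the filter on low counts. Polyadenylated RNA was sequenced from sorted back skin cells of adult mice at postnatal day 70, in 3 PRC1 i2KO libraries and 2 Control libraries. The PRC1 i2KO mice carried the genotype K15-CrePR1:Ring1a-/-, Ring1bflox/flox, and the Control mice were Ring1a-/-, Ring1bflox/flox without the Cre transgene. All mice, Controls included, therefore lacked Ring1a, and all were painted with 1% RU-486 on 10 successive days from postnatal day 50. K15-CrePR1 is a Cre recombinase that works only in the presence of RU-486 and is driven by the promoter of keratin 15, a bulge keratin, so Ring1b was to be deleted in keratin 15-expressing cells and not in the whole skin. The labels do not say how many animals stand behind a library, so the spread between libraries may be technical, and it is the only spread that the p-values measure. Cells were gated as EpCAM-positive, CD34-positive, α6-integrin-high and Sca1-negative, and 50000 were lysed per sample.

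The bulge is the part of the resting hair follicle in which its stem cells stay quiescent between growth phases. Its cells in the mouse carry CD34, a sialomucin of the cell surface, and lie on a basement membrane held by α6-integrin. Sca1, the product of Ly6a, is a lipid-anchored surface protein of the interfollicular epidermis and infundibulum that bulge cells lack. LGR5 marks the lower bulge and the hair germ beneath it, whereas LGR6, LRIG1 and PLET1 mark the isthmus and junctional zone above the bulge. Polycomb repressive complex 1 (PRC1) places ubiquitin on histone H2A through its catalytic subunits Ring1a (gene Ring1) and Ring1b (gene Rnf2), and the series asks what the mark has to do with stem cell quiescence.

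Total counts ranged from 25461650 to 43307694 in the PRC1 i2KO libraries and were 42916190 and 11626006 in Control 2 and Control 3. Mitochondrially encoded RNAs took 26.6% to 38.4% of the counts in PRC1 i2KO libraries and 21.2% and 27.4% in Control libraries. Rnf2 was at 39.9, 33.1 and 36.4 CPM (counts scaled to library size) in PRC1 i2KO 1, 2 and 3, against 27.7 and 37.5 CPM in Control 2 and 3, and Ring1 was between 1.58 and 3.67 CPM against 1.87 and 5.0 CPM. In TPM (transcript abundance, scaled for transcript length) Rnf2 was at 16.8, 12.9 and 11.7 in PRC1 i2KO, against 25.1 and 24.4 in Control. These gene-level values pool deleted and retained exons and so check no label. Of the 10 bulge keratin and transcription factor genes used to check the labelled cell type, none was under 1 CPM throughout, and Krt5 and Krt15 led them. Krt15 was at 4427, 5076 and 3418 CPM in PRC1 i2KO libraries, against 4269.9 and 4357.5 CPM in Control libraries, and Krt5 lay between 4752 and 6041 CPM throughout. Summed endothelial markers, led by Pecam1 and Egfl7, stayed between 22.4 and 29.6 CPM in PRC1 i2KO libraries, against 26.1 and 17.5 CPM in Control libraries, and summed immune markers, led by Cd74 and Cd68, between 12.8 and 17.6 CPM, against 9.16 and 13.4 CPM. Mural markers, led by Cspg4 and Notch3, summed to between 215 and 243 CPM, against 254.5 and 252 CPM, and Acta2, Tagln, Myh11 and Rgs5 were each under 1 CPM in every library.

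No gene of the set passed the test between the groups. By the quasi-likelihood test of edgeR, adjusted over all 22181 genes, 0 of the 10 were higher and 0 lower in PRC1 i2KO at an adjusted p under 0.05, where 0.126% of all genes were called higher and 0.0% lower. At an unadjusted p under 0.05, Ly6a was higher and Ctgf, Lgr5 and Cd34 were lower, where 7.43% of all genes were higher and 3.51% lower. DESeq2 called 0 of the 10 (3.57% of all genes higher and 0.786% lower), and limma on log2(TPM + 1) also called 0 (0.01% higher and 0.00501% lower). In CPM, Ly6a lay higher in every PRC1 i2KO library than in Control 2 and Control 3, an order shown by 14.6% of all genes. Cd34, Ctgf, Lgr5 and Postn lay lower in every PRC1 i2KO library, an order shown by 15.3% of all genes, and the other 5 overlapped. In TPM Ly6a was again higher throughout (7.01% of all genes), and Cd34, Ctgf, Lgr5 and Nfatc1 were lower throughout (23.0% of all genes). The median log2 fold change of the 10 was 0.0072, beside 0.0053 over all genes. On the TPM scale the median over all genes was itself shifted, to -0.24, and that of the 10 was -0.38.

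**Figure D1:**
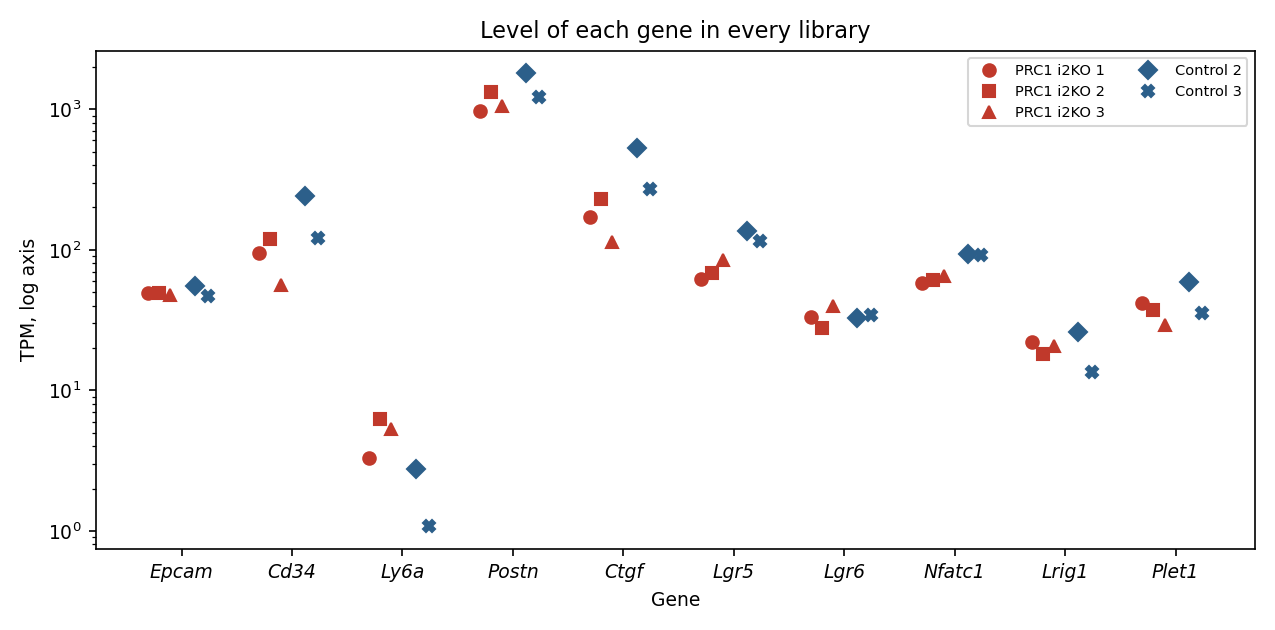
TPM (log axis) of the 10 genes in every library, with PRC1 i2KO libraries in red on the left and Control libraries in blue on the right of each gene. Postn stands highest, between 976 and 1799.7 TPM, and Ly6a lowest, between 1.08 and 6.23 TPM, and the 2 colours are separated without overlap for Cd34, Ly6a, Ctgf, Lgr5 and Nfatc1.

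**Figure D2:**
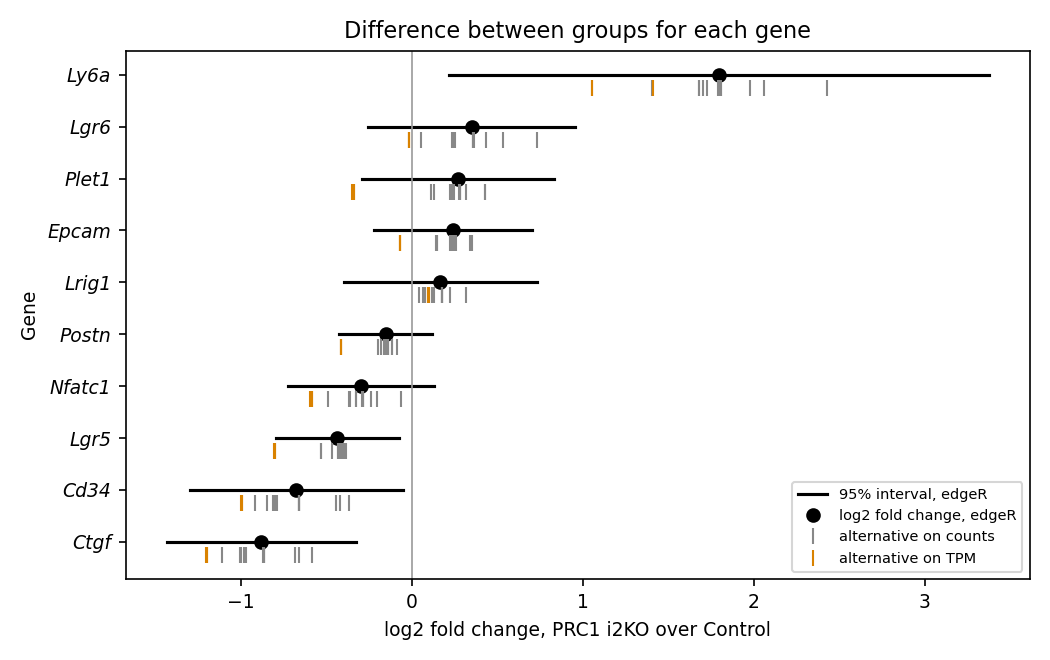
Log2 fold change of each gene, PRC1 i2KO over Control, with its 95% interval from edgeR (black) and the values under 15 other settings below it (grey on counts, orange on TPM). Intervals of Ly6a, Lgr5, Cd34 and Ctgf leave out 0 before adjustment, and none of the 10 genes passed after adjustment over all genes.

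Ranked by mean TPM, the 10 genes stood in the same order in both groups: Postn, Ctgf, Cd34, Lgr5, Nfatc1, Epcam, Plet1, Lgr6, Lrig1 and Ly6a. Postn, a matricellular protein of the bulge matrix, was at 976, 1321 and 1061 TPM in PRC1 i2KO 1, 2 and 3, against 1799.7 and 1221 TPM in Control 2 and 3, and ranked between 42 and 51 among all features in PRC1 i2KO libraries, against 28 and 29 in Control libraries. Mean levels of the next 4 in PRC1 i2KO were 171 TPM for Ctgf, 90.0 TPM for Cd34, 71.7 TPM for Lgr5 and 61.4 TPM for Nfatc1, against 401, 182, 125 and 92.6 TPM in Control. In PRC1 i2KO neighbours in this order overlapped over libraries for Ctgf and Cd34, Cd34 and Lgr5, Lgr5 and Nfatc1, and Plet1 and Lgr6. In Control they overlapped for Cd34 and Lgr5 and for Epcam and Plet1 only. Epcam, Plet1, Lgr6 and Lrig1 followed at 48.8, 36.1, 33.7 and 20.3 TPM in PRC1 i2KO, against 51.3, 47.0, 33.7 and 19.8 TPM in Control, and Ly6a was last at 4.95 TPM, against 1.92 TPM. The level of Ly6a, whose product was gated against, lay at percentile 69.99 of all features in PRC1 i2KO and at percentile 53.8 in Control, and Cd34 at percentile 98.3 and 99.1.

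Of the antigens selected for, CD34 had the largest difference in RNA. Cd34 (ENSMUSG00000016494.9) was at 298, 292 and 164 CPM in PRC1 i2KO 1, 2 and 3, against 477 and 326 CPM in Control 2 and 3. Every PRC1 i2KO library lay below both Control libraries, PRC1 i2KO 3 far below the other libraries, while PRC1 i2KO 1 and 2 lay just under Control 3. The means were 252 ± 75.5 CPM (SD, n = 3) in PRC1 i2KO and 402 ± 107 CPM (SD, n = 2) in Control. That is a log2 fold change of -0.68 ± 0.27 (SE), or 62.6% of Control with a 95% interval of 40.7% to 96.4%, and it did not pass (edgeR adjusted p = 0.422). The log2 fold change was -0.37 without Control 2 and -0.45 without PRC1 i2KO 3. Mitosis genes, of which 8 were followed, summed to 271, 57.8 and 629 CPM in PRC1 i2KO 1, 2 and 3, against 28.6 and 60.0 CPM in Control 2 and 3. The library with the least Cd34 had the most mitotic RNA, while PRC1 i2KO 1 and 2 had near-equal Cd34 at unlike mitosis sums. The part of these genes in the result was not tested. In bulk RNA, fewer cells with a transcript and less of it per cell cannot be told apart.

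Epcam (ENSMUSG00000045394.9), the epithelial adhesion molecule used as the pan-epithelial gate, was at 106, 79.9 and 94.1 CPM in PRC1 i2KO libraries, against 73.4 and 84.3 CPM in Control libraries. The groups overlapped, and the log2 fold change of 0.24 ± 0.20 had an interval of -0.22 to 0.70 (edgeR adjusted p = 0.731). On the TPM scale its sign turned (-0.07), with 49.6, 49.2 and 47.6 TPM against 55.5 and 47.1 TPM. Itga6, the integrin of the gate, was at 285, 345 and 306 CPM in PRC1 i2KO, against 310.03 and 321 CPM in Control (log2 fold change -0.02, edgeR adjusted p = 0.984). Within a library, where scaling cancels, there were 1.26, 0.992 and 0.607 Cd34 transcripts per Itga6 transcript in PRC1 i2KO 1, 2 and 3, against 1.80 and 1.17 in Control 2 and 3, so this ratio overlapped between the groups. Per Epcam transcript there were 1.91, 2.43 and 1.18 of Cd34 in PRC1 i2KO, against 4.35 and 2.59 in Control. These did not overlap, but PRC1 i2KO 2 lay just under Control 3. Both ratios are between genes chosen with earlier results known and are given without a test.

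Ly6a (ENSMUSG00000075602.10) was the only gene of the set that lay higher in every PRC1 i2KO library, from a low level. It had 68, 212 and 156 counts in PRC1 i2KO 1, 2 and 3, against 80 and 10 counts in Control 2 and 3, which are 3.12, 4.78 and 4.93 CPM against 1.62 and 0.793 CPM. The exact Poisson 95% interval of the lowest PRC1 i2KO library, 2.42 to 3.95 CPM, lay above that of the highest Control library, 1.29 to 2.02 CPM, and these intervals cover counting error only. The log2 fold change was 1.79 ± 0.70, with an interval of 0.21 to 3.38 (edgeR adjusted p = 0.398, DESeq2 adjusted p = 0.0845). Without Control 2 it was 2.43 and without Control 3 it was 1.41. Sca1 is also carried by skin cells outside this gate, and the levels of their markers are given here. The 12 genes of interfollicular and differentiating epidermis, led by Klf4 and Krt10, summed to 2142, 4038 and 2542 CPM in PRC1 i2KO libraries, against 2261 and 2179 CPM in Control libraries, and overlapped. Over these 12 genes the median log2 fold change was 0.87 (0.17 without PRC1 i2KO 2), with 11 positive and 0 called by edgeR (unadjusted, 4 higher and 1 lower; DESeq2, 4 and 0). Upper follicle genes, 10 in number and led by Lgr6 and Krt79, summed to 904, 423 and 556 CPM, against 323 and 459.99 CPM, and overlapped. Without Lgr6, Lrig1 and Plet1 the other 7 summed to 499, 148 and 173 CPM in PRC1 i2KO, against 86.5 and 126 CPM in Control. These sums did not overlap, with PRC1 i2KO 1 far above the rest. Singly, 3 of the 7 genes lay higher in every PRC1 i2KO library, an order shown by 14.6% of all genes. The other 4 overlapped, and 2 of the 7 had a negative log2 fold change. The fibroblast list summed to 205, 208 and 144 CPM in PRC1 i2KO, against 241 and 166 CPM in Control, and overlapped. It was led by Col6a1 and Col6a2, and Col3a1, Lum and Mfap5 were under 1 CPM in every library. Of its 7 tested genes 4 had a positive and 3 a negative log2 fold change, with a median of 0.16, or -0.028 without PRC1 i2KO 1. By edgeR 0 of them were called. At an unadjusted p under 0.05, 2 were higher and 1 lower, and DESeq2 called 2 higher and 0 lower. Pdgfra of that list, named after its values were seen, was at 32.5, 25.4 and 16.0 CPM, against 3.37 and 2.22 CPM (edgeR adjusted p = 0.0502, DESeq2 adjusted p = 2.07e-10). Their part in the result was not tested.

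The 250 bases before the start of Cd34 and Epcam are shown because these genes carry the positive gate, and the CG dinucleotides in them are in capitals, since CpG-rich promoters are where PRC1 is known to bind. The sequences are those of RefSeq on GRCm38.p6, read on the plus strand of chr1:194938571-194938820 for Cd34 and of chr17:87635729-87635978 for Epcam.
Cd34: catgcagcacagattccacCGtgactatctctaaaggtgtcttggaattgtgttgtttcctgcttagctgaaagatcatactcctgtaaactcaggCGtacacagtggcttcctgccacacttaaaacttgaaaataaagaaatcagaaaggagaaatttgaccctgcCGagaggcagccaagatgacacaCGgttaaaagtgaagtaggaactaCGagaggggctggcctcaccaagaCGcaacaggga
Epcam: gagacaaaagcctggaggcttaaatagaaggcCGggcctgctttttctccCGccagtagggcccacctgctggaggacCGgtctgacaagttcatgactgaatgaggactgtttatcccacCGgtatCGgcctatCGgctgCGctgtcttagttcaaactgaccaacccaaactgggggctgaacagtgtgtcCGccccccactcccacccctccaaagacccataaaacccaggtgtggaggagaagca
The Cd34 window held 6 CG dinucleotides and the Epcam window 8, where the median of 32851 such windows was 6 and 92.1% held at least 1. CG reads the same on both strands.

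Members of the families around the gated antigens were tested in the same fit. Most genes named from the pathway lists, here and below, were picked for the smallest p in their list, which favours an order without overlap. In CPM 14.6% of all genes lay higher in every PRC1 i2KO library and 15.3% lay lower. None of the 5 genes of CD34, its sialomucin relatives and its binding partners passed (unadjusted, 1 higher and 1 lower; DESeq2, 1 and 0), with a median log2 fold change of -0.093, or 0.027 without Control 2. Podxl, which encodes the related sialomucin podocalyxin, was at 4.45, 4.24 and 10.6 CPM in PRC1 i2KO, against 0.0406 and 0.555 CPM in Control, with no overlap (log2 fold change 4.72 ± 1.16, edgeR adjusted p = 0.199, DESeq2 adjusted p = 0.000152). Its Control values rest on 2 and 7 counts, so the size is uncertain. The log2 fold change of Podxl was 3.53 without Control 2, 7.20 without Control 3 and 0.905 on the log2(TPM + 1) scale. Crkl, an adaptor that binds CD34, overlapped between the groups (edgeR adjusted p = 0.815). Among the 9 tested of 10 listed genes around EpCAM, all 9 had a positive log2 fold change with a median of 0.26, and 0 passed (unadjusted, 2 and 0; DESeq2, 1 and 0). On the log2(TPM + 1) scale that median was -0.046, against -0.24 for all genes. Cd44, the hyaluronan receptor, was at 368, 242 and 381 CPM, against 170 and 185 CPM, with no overlap (0.90 ± 0.22, edgeR adjusted p = 0.1999). Spint2, a protease inhibitor gene, overlapped between the groups (edgeR adjusted p = 0.698).

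Of the 8 pathway lists, that of Ly6a and its relatives had the highest median, though 0 of its genes passed by edgeR. Over the 9 tested of 13 listed genes the median log2 fold change was 1.61, or 0.73 on the log2(TPM + 1) scale, or 0.91 without PRC1 i2KO 2, with 8 positive (unadjusted, 4 higher and 0 lower; DESeq2, 3 and 0). Ly6g6c was at 285, 435 and 261 CPM in PRC1 i2KO libraries, against 156 and 135 CPM in Control libraries (1.17 ± 0.24, edgeR adjusted p = 0.149, DESeq2 adjusted p = 0.00142). Ly6d, which is known from differentiating keratinocytes and lymphoid progenitors, was at 39.6, 46.1 and 22.8 CPM, against 11.2 and 12.5 CPM (1.62 ± 0.35, edgeR adjusted p = 0.164, DESeq2 adjusted p = 0.000804). Ly6e was at 66.5, 31.3 and 46.0 CPM, against 6.68 and 18.5 CPM (1.95 ± 0.48, edgeR adjusted p = 0.1999, DESeq2 adjusted p = 0.00258). In CPM all 3 lay higher in every PRC1 i2KO library, an order shown by 14.6% of all genes. They were picked for the smallest p in the list, which favours such an order. In TPM Ly6g6c overlapped, at 265, 568 and 285 TPM in PRC1 i2KO, against 275 and 165 TPM in Control, and Ly6d and Ly6e did not. Ly6c1 and Ly6c2, close relatives of Ly6a in sequence with which reads could be shared, were under 1 CPM in every library.

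Of the R-spondin receptors, Lgr5 lay lower in PRC1 i2KO and its relatives Lgr4 and Lgr6 did not. These receptors bind R-spondins and thereby keep WNT receptors at the cell surface. Lgr5 (ENSMUSG00000020140.15) was at 322, 315 and 382 CPM in PRC1 i2KO 1, 2 and 3, against 449 and 471 CPM in Control 2 and 3. Both groups were tight, at 339.9 ± 36.8 CPM (SD, n = 3) in PRC1 i2KO and 460.2 ± 15.1 CPM (SD, n = 2) in Control, and they did not overlap. The log2 fold change was -0.44 ± 0.16, or 73.9% of Control with an interval of 57.6% to 94.8%, and did not pass (edgeR adjusted p = 0.359). Hair germ genes, whose cells also carry LGR5 and were led by Cdh3 and Lef1, summed to 183, 161 and 157 CPM in PRC1 i2KO, against 122 and 154 CPM in Control, and their part in the result was not tested. Lgr6 (ENSMUSG00000042793.13) was at 292, 185 and 295 CPM, against 156 and 248.7 CPM, and overlapped between the groups (0.35 ± 0.27, interval -0.26 to 0.96, edgeR adjusted p = 0.699). The log2 fold change of Lgr6 was 0.053 without Control 2 and 0.73 without Control 3. On the TPM scale Lgr6 was level, with means of 33.7 TPM in both groups. Lgr4, the widely expressed member, was at 302, 295 and 312 CPM, against 274 and 241 CPM, higher throughout (0.23 ± 0.16, edgeR adjusted p = 0.6497). In TPM Lgr4 was at 54.8, 71.2 and 66.0 TPM in PRC1 i2KO, against 89.2 and 56.3 TPM in Control, and overlapped.

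**Figure D3:**
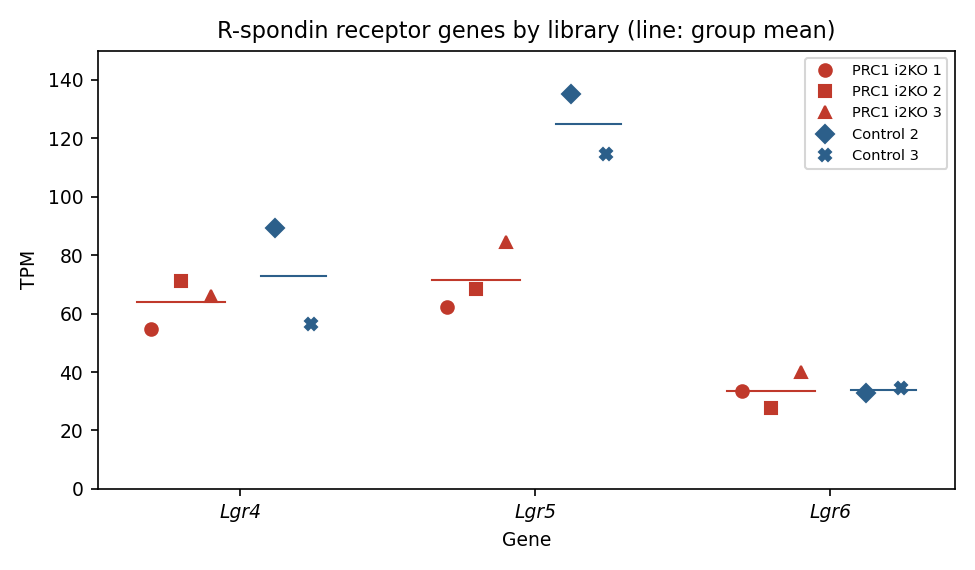
TPM of the R-spondin receptor genes Lgr4, Lgr5 and Lgr6 in every library, with PRC1 i2KO on the left and Control on the right of each gene and a line at each group's mean. Lgr5 lies between 62.3 and 84.3 TPM in PRC1 i2KO and at 135 and 115 TPM in Control, whereas Lgr4 and Lgr6 overlap.

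In PRC1 i2KO 1, 2 and 3 Lgr5 had 1.86, 2.48 and 2.12 times the transcripts of Lgr6, against 4.10 and 3.33 times in Control 2 and 3. This ratio of TPM values, which no scaling between libraries can move, did not overlap between the groups. It was chosen with the values known and is given without a test. It also rests on the transcript length that the deposited estimates imply in each library. Scaled to a Control mean of 1, that length was 1.01, 1.16 and 0.954 for Lgr5 in PRC1 i2KO, against 1.05 and 0.954 in Control. For Lgr6 the length was 1.07, 1.07 and 0.985 in PRC1 i2KO, against 0.939 and 1.06 in Control. Of the 8 tested of 11 listed genes of the R-spondin pathway, 0 passed (unadjusted, 1 higher and 1 lower; DESeq2, 0 and 0), with a median log2 fold change of 0.18, or 0.10 without Control 2, 0.073 without PRC1 i2KO 3 and -0.08 on the log2(TPM + 1) scale. Rspo1, a ligand, was at 4.03, 4.13 and 4.27 CPM in PRC1 i2KO, against 1.40 and 0.397 CPM in Control (2.15 ± 0.77, edgeR adjusted p = 0.352). Its Control values rest on 69 and 5 counts. In TPM Rspo1 overlapped, at 1.79, 4.14 and 3.26 in PRC1 i2KO, against 2.11 and 0.221 in Control. The ligand genes Rspo2 and Rspo3 were under 1 CPM in every library. Lrp6, the WNT co-receptor, was at 262, 234 and 196 CPM, against 308 and 281 CPM (-0.35 ± 0.18, edgeR adjusted p = 0.523).

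Lrig1 and Plet1, as markers of the isthmus and junctional zone, did not differ beyond the spread between libraries. Lrig1 (ENSMUSG00000030029.14), a transmembrane protein that restrains epidermal growth factor receptors, was at 49.8, 33.7 and 47.4 CPM in PRC1 i2KO, against 37.5 and 40.2 CPM in Control (0.17 ± 0.25, interval -0.40 to 0.73, edgeR adjusted p = 0.867). Plet1 (ENSMUSG00000032068.14), a lipid-anchored surface protein, was at 63.1, 56.3 and 40.5 CPM, against 43.1 and 45.4 CPM (0.27 ± 0.25, interval -0.29 to 0.83, edgeR adjusted p = 0.757), and on the TPM scale the sign turned (-0.34). For both genes the range of the PRC1 i2KO libraries enclosed the Control libraries. The intervals reach 166% of Control for Lrig1 and 178% for Plet1. Of the 10 upper follicle genes, Lrig1, Plet1 and Lgr6 included, 0 passed by edgeR (unadjusted, 3 higher and 0 lower; DESeq2, 3 and 0), with a median log2 fold change of 0.97. That median was 0.35 without PRC1 i2KO 1. Without Lrig1, Plet1 and Lgr6 the median of the other 7 was 1.86, and they held all 3 of those genes. Krt79, a keratin of the infundibulum and sebaceous duct, was at 209, 36.9 and 63.2 CPM, against 8.79 and 48.9 CPM, and overlapped.

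The promoter windows of Lgr6 and Lrig1 are shown as the most CpG-rich among the 6 genes of the set with a window in the table, again as the 250 bases before the start, RefSeq on GRCm38.p6, with CG in capitals. They lie on the minus strand, at chr1:135105277-135105526 for Lgr6 and at chr6:94700146-94700395 for Lrig1.
Lgr6: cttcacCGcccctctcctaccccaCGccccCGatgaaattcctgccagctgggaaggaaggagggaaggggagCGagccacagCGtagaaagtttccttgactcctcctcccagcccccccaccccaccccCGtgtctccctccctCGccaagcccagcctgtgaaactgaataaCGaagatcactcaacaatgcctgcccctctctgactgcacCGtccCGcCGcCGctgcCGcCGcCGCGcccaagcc
Lrig1: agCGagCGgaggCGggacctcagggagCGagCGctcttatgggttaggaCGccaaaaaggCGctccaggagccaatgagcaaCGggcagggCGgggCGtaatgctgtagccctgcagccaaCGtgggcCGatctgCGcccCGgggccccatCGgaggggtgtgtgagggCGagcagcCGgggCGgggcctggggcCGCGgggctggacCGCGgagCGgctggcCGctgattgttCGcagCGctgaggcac
The Lgr6 window held 16 CG dinucleotides, at percentile 74.6 of all windows, and the Lrig1 window 26, at percentile 90.4. Plet1 had 3, and the 2 windows of Postn had 3 and 4.

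Around LRIG1, 0 of the 15 tested LRIG, receptor and ligand genes passed by edgeR (unadjusted, 1 higher and 1 lower; DESeq2, 1 and 0), with a median log2 fold change of 0.40. The list's median was -0.17 without PRC1 i2KO 2, 0.15 without Control 3 and 0.615 without Control 2. On the log2(TPM + 1) scale, whose fit did not hold Erbb4, it was -0.012. Erbb4, a receptor gene with no count in either Control library, had 140 counts over the PRC1 i2KO libraries, at 1.15, 1.17 and 1.99 CPM, and was at least 29.6-fold higher than 3 counts over both Control libraries (edgeR adjusted p = 0.157, DESeq2 adjusted p = 0.00209). Lrig2, the relative of Lrig1, was at 45.6, 58.8 and 55.1 CPM, against 87.1 and 69.0 CPM, with no overlap (-0.55 ± 0.22, edgeR adjusted p = 0.398). The ligand gene Tgfa was at 20.3, 23.7 and 29.9 CPM, against 16.2 and 15.9 CPM (0.62 ± 0.29, edgeR adjusted p = 0.4903). Egfr itself lay between 608 and 683 CPM in PRC1 i2KO, against 629 and 649.6 CPM in Control.

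Nfatc1 (ENSMUSG00000033016.15) encodes the calcineurin-dependent transcription factor that is known to hold bulge stem cells in quiescence, and the order of the groups depended on the scale. It was at 346, 284 and 362 CPM in PRC1 i2KO, against 348 and 466 CPM in Control, where Control 2 lay inside the PRC1 i2KO range (-0.30 ± 0.19, interval -0.72 to 0.13, edgeR adjusted p = 0.619). In TPM it was at 58.1, 61.4 and 64.7 in PRC1 i2KO and at 93.2 and 92.0 in Control, with no overlap and little spread in either group. By limma on log2(TPM + 1) the difference was -0.59, or -0.35 relative to the median of all genes, and did not pass (limma adjusted p = 0.475). Of the 13 tested of 14 listed genes of calcineurin and NFAT, 0 passed (unadjusted, 0 higher and 1 lower; DESeq2, 0 and 0), with a median of -0.051, or 0.14 without Control 2 and 0.17 without PRC1 i2KO 2. Stim1, the calcium sensor of the endoplasmic reticulum, was at 80.5, 109 and 76.4 CPM, against 137 and 131 CPM, with no overlap (-0.60 ± 0.21, edgeR adjusted p = 0.344). Nfat5, the tonicity-responsive relative, was at 697, 874 and 651 CPM, against 1008 and 841 CPM (-0.32 ± 0.17, edgeR adjusted p = 0.561), and Rcan1, a calcineurin inhibitor induced by NFAT, at 85.0, 79.8 and 92.6 CPM, against 59.5 and 73.3 CPM (0.37 ± 0.20, edgeR adjusted p = 0.555, with the sign turned to -0.0031 on the TPM scale).

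Ctgf (ENSMUSG00000019997.11), a secreted matricellular protein and textbook target of YAP and TEAD, had the smallest p of the 10 genes. It was at 516, 522 and 319.9 CPM in PRC1 i2KO 1, 2 and 3, against 986 and 681 CPM in Control 2 and 3. The groups did not overlap, PRC1 i2KO 3 being lowest and Control 2 highest. The means were 453 ± 115 CPM (SD, n = 3) in PRC1 i2KO and 833 ± 216 CPM (SD, n = 2) in Control. The log2 fold change was -0.88 ± 0.24, or 54.3% of Control with an interval of 37.0% to 79.7%. It did not pass over all genes (edgeR adjusted p = 0.2395, DESeq2 adjusted p = 0.0610), and was -0.59 without Control 2 and -0.68 without PRC1 i2KO 3. In TPM the values were 172, 229 and 114 in PRC1 i2KO, against 532 and 270.3 in Control. PRC1 i2KO 3, lowest in Ctgf, had the highest mitosis sum. PRC1 i2KO 1 and 2, near-equal in Ctgf, had unlike mitosis sums, at 271 and 57.8 CPM. The part of that sum in the result was not tested.

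**Figure D4:**
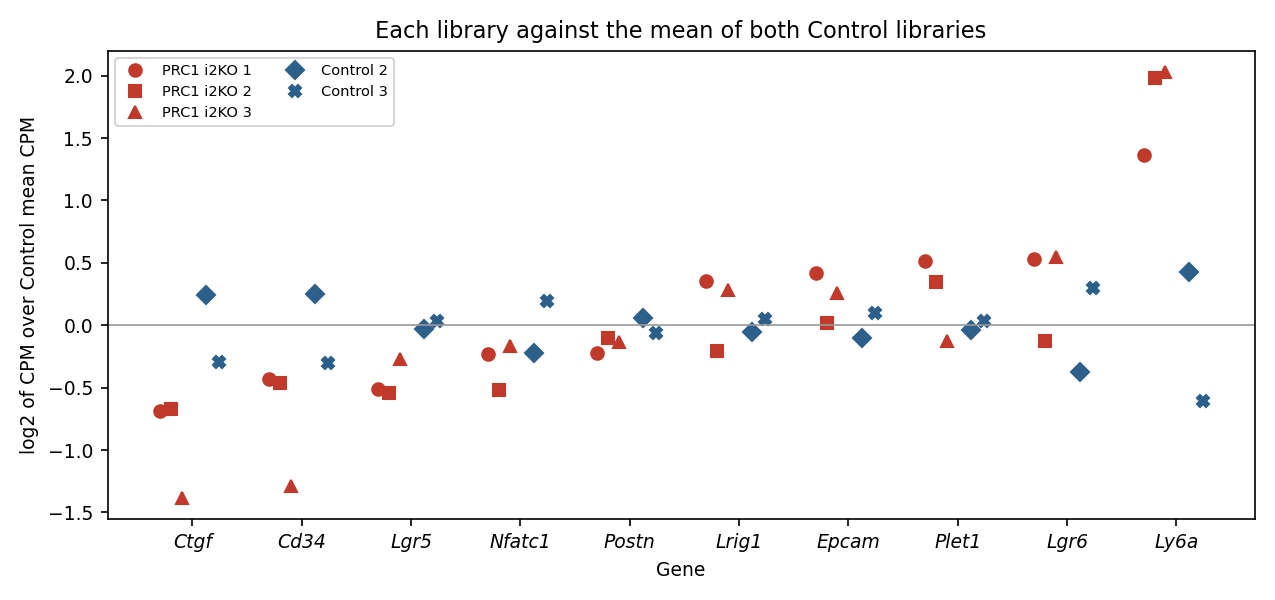
Log2 ratio of each library's CPM to the mean of both Control libraries for the 10 genes, PRC1 i2KO in red on the left and Control in blue on the right of each gene. For Ctgf and Cd34, PRC1 i2KO 3 lies lowest, at -1.38 and -1.29, and Control 2 highest, at 0.24 and 0.25, while Ly6a lies at 1.37 to 2.03 in PRC1 i2KO.

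The profiles of Cd34 and Ctgf across libraries lay close together. The Euclidean distance between their centred log2(CPM + 1) profiles over the 5 libraries was 0.243, the second smallest among the 36 pairs of the 9 genes with at least 10 CPM, after Epcam and Lrig1 (0.213) and before Lgr5 and Nfatc1 (0.351). Control 2 held 1.46 times the Cd34 and 1.45 times the Ctgf of Control 3. Among 8921 other genes with a mean of at least 10 CPM, the 3 closest to Cd34 by the same distance were Alox8 (0.134), Phtf1 (0.175) and Kdelc2 (0.223). Alox8, a lipoxygenase gene, was at 20.4, 20.4 and 9.81 CPM in PRC1 i2KO, against 31.9 and 20.9 CPM in Control (edgeR adjusted p = 0.596). These distances are a description over 5 libraries, with no test.

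Of the 15 tested of 18 listed genes of the CCN family and of YAP and TEAD, 0 passed by edgeR (unadjusted, 0 higher and 3 lower; DESeq2, 0 and 1), with a median log2 fold change of -0.086, or 0.094 without Control 2, and 11 negative. Axl, a receptor kinase gene and known YAP target, was at 63.4, 65.5 and 48.9 CPM in PRC1 i2KO, against 113 and 93.9 CPM in Control, with no overlap (-0.80 ± 0.21, edgeR adjusted p = 0.2199, DESeq2 adjusted p = 0.0304). Cyr61, a close relative of Ctgf, was at 159.8, 183 and 104 CPM, against 387 and 176 CPM, where PRC1 i2KO 2 lay above Control 3 (-0.92 ± 0.33, edgeR adjusted p = 0.36, and -0.23 without Control 2). Yap1 itself was at 183, 157 and 176 CPM, against 189 and 164 CPM, and overlapped.

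Postn (ENSMUSG00000027750.16) was the most abundant gene of the set and the one that varied least between libraries in CPM, 1.21-fold from the lowest to the highest. It was at 3589.5, 3899.8 and 3803 CPM in PRC1 i2KO, against 4351 and 4013 CPM in Control, so that every PRC1 i2KO library lay lower but by little (-0.15 ± 0.12, or 90.0% of Control with an interval of 74.6% to 109%, edgeR adjusted p = 0.7101). In TPM the groups overlapped. Of the 13 tested of 14 listed genes of periostin and the niche matrix, 0 passed (unadjusted, 2 higher and 1 lower; DESeq2, 0 and 0), with a median of -0.15, which is the value of Postn itself. Without Postn the median of the other 12 was 0.15. The list's median was 0.17 without Control 2, 0.18 without Control 3 and 0.20 by DESeq2. Each of these is over the listed genes that the fit held, which need not be the same 13. The sign of the list's median thus depends on the setting and on the genes held. Postn itself stayed negative under all 15 other settings. Npnt, the bulge basement membrane protein nephronectin, was at 93.3, 81.5 and 104 CPM, against 170.2 and 122 CPM, with no overlap (-0.65 ± 0.21, edgeR adjusted p = 0.302). Tnc, the matrix glycoprotein tenascin-C, was at 79.3, 70.6 and 65.6 CPM, against 53.5 and 38.3 CPM (0.64 ± 0.23, edgeR adjusted p = 0.349), and Fn1, fibronectin, at 17.0, 32.5 and 30.8 CPM, against 17.0 and 13.2 CPM (0.82 ± 0.35, edgeR adjusted p = 0.447).

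**Figure D5:**
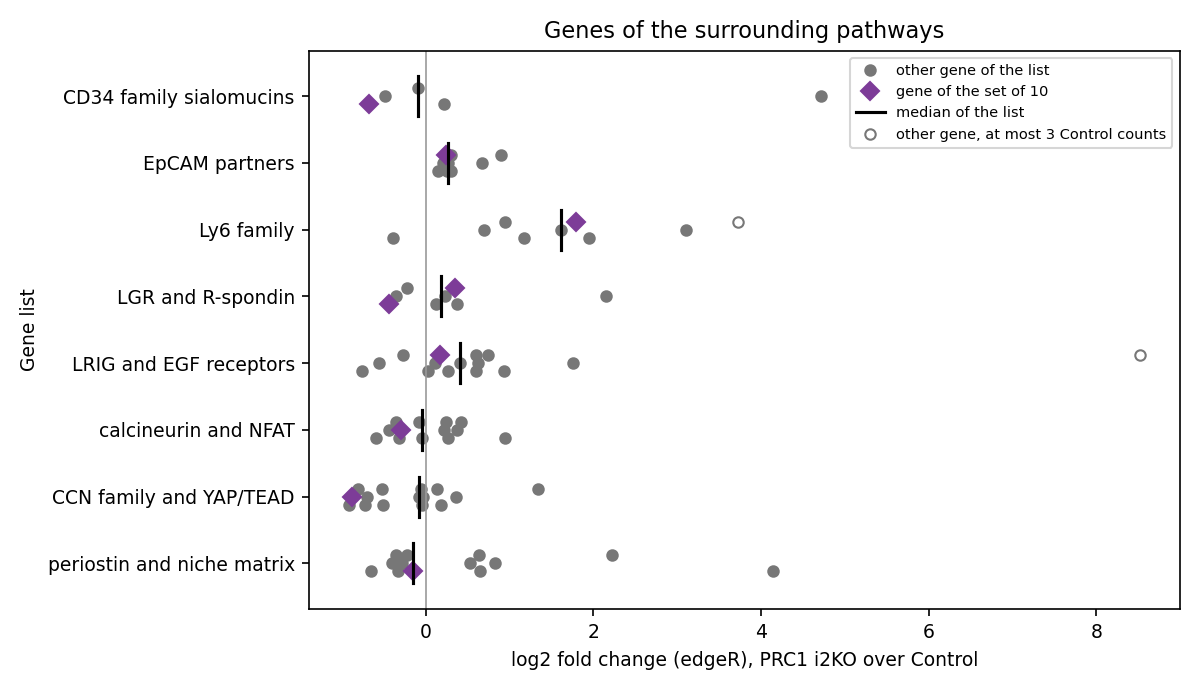
Log2 fold changes (edgeR, PRC1 i2KO over Control) of the tested genes in 8 lists around the set, with genes of the set as diamonds, the list's median as a bar and genes with at most 3 Control counts as open circles, whose fitted values are not sizes. The Ly6 list has the highest median, 1.61, and Ctgf, Cd34 and Lgr5 lie at or near the low end of their lists.

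Several of the 10 genes overlap another annotated gene on the opposite strand in GENCODE M21, and strand use in counting was not given in the sources used here, so reads of such partners cannot be told apart. Gm16897, which is antisense to Cd34, was at 19.2, 13.4 and 14.6 CPM in PRC1 i2KO 1, 2 and 3, against 39.1 and 46.0 CPM in Control 2 and 3. The groups did not overlap, with a log2 fold change of -1.44 ± 0.27 (edgeR adjusted p = 0.1245). Gm16897 was called lower by DESeq2 (adjusted p = 0.000147), as was 0.786% of all genes. It was also called by edgeR with no filter on low counts (adjusted p = 0.0412) and with the replicate block by title numbers (adjusted p = 0.031). The other 12 of the 15 settings did not call it, among them limma-voom (adjusted p = 0.118) and limma on log2(TPM + 1) (adjusted p = 0.286). A930009A15Rik, opposite Lgr5, was at 7.88, 9.84 and 14.9 CPM, against 23.4 and 12.7 CPM, and overlapped between the groups (-0.73 ± 0.41, edgeR adjusted p = 0.576, and -0.22 without Control 2). Slc25a26, opposite Lrig1, was at 7.74, 9.14 and 11.4 CPM in PRC1 i2KO 1, 2 and 3, against 4.08 and 6.51 CPM in Control 2 and 3 (edgeR adjusted p = 0.5635). Plet1os, opposite Plet1, was at 2.48, 1.35 and 2.59 CPM, against 0.183 and 1.51 CPM, and overlapped. Gm15270, opposite Ctgf, was at 1.05, 2.64 and 13.25 CPM, against 5.06 and 9.28 CPM. It overlapped too, with PRC1 i2KO 1 and 2 below both Control libraries.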

How the data were processed

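The deposited table gives, for 3 PRC1 i2KO and 2 Control libraries, expected counts and TPM values over 30840 features. Per the labels' protocols, each library began from 50 ng of total RNA, and RNA integrity numbers exceeded 8. The build mm39 and the tools RSEM 1.3.3, STAR 2.7.9a and DESeq2 1.38.2 stand in the submitters' processing notes, with no role given. In the deposited expected counts 60.4% of values were not whole, so they were rounded before testing. The deposited TPM values summed to between 999962.6 and 999977.5 per library. Column names matched the sample titles.

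The quasi-likelihood test of edgeR 4.0.16 (R 4.3.3) was run on the 22181 genes that passed filterByExpr, after TMM scaling and with group as sole term. P-values were adjusted by Benjamini-Hochberg, with a threshold of 0.05. An error beside a fold change on the log2 scale is its SE, and intervals are 95%. CPM use TMM-scaled library sizes, where 1 count stood for 0.0203 to 0.0793 CPM. Alternatives were DESeq2 1.42.0, limma 3.58.1 (voom, or on log2(TPM + 1) and log2(TPM + 0.1) for genes of at least 0.5 TPM in 2 libraries), other size factors, no filter, removal of 36 mitochondrially encoded genes, each library left out, and a block by replicate number. The median of a list under another setting is over the listed genes that its fit held, which can differ from those tested by edgeR on filtered counts. The tests were tried on simulated counts. Gene lists and members were chosen with earlier results of these data known. Named genes were all members, the 3 of smallest unadjusted p in each pathway list, the 2 most abundant in each cell type list, and the 3 genes closest to Cd34. One gene that this rule names is not reported here. Itga6, Lgr4, Egfr, Yap1, Pdgfra and the antisense partners were named after their values were seen. The mapping build has no genome here, so coordinates are given only for RefSeq promoter windows on GRCm38.p6. Windows matched 6 of the 10 genes, and for 5 of them, Postn being the exception, the bases after the start were found in a GENCODE M21 transcript.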

Additional observations from a re-analysis of the deposited data

How the results depend on the processing

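Of the 150 values of the 10 genes under 15 other settings, 140 kept their sign and their side of the threshold. Signs turned for 3 genes, all on the TPM scale and none past the threshold. Epcam was at -0.0668 on log2(TPM + 1), with and without a filter, and at -0.0679 on log2(TPM + 0.1), Lgr6 at -0.0156 and -0.0164, and Plet1 at -0.341 and -0.348. Of the other named genes, Crkl turned to -0.676 and -0.709 on these scales and to -0.00803 without Control 3 (its values with each library left out ran from -0.00803 to 0.493), Rcan1 to -0.00314 and -0.00332, and Spint2 to -0.000222 on log2(TPM + 0.1). Of the 388 values of those 26 genes, 364 kept sign and side, and 16 passed the threshold where edgeR on filtered counts did not.

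The number of genes called higher over the whole table, 28 by edgeR, was 140 with no filter, 754 by DESeq2, 4 by limma-voom, 2 and 7 on the TPM scales and 0 on log2(TPM + 1) with no filter, and between 4 and 39 with each library left out. The number called lower, 0 by edgeR, was 12 with no filter, 166 by DESeq2, 1 and 5 on the TPM scales and 0 to 4 with each library left out. With the replicate block by title numbers it was 140 higher and 25 lower, and 1 gene of the set, Ctgf, was then called lower (-1.003, adjusted p = 0.0185). With the block by description numbers 10 were higher and 0 lower. The labels do not say that a number pairs samples. Differences between libraries, matched over the groups by title number, correlated at 0.0938 over genes (description numbers, -0.0718). With 1 such difference per group, these correlations cannot decide whether same-numbered samples were paired. The cause of these differences in count was not tested.

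With each library left out, all 10 genes kept their sign, while log2 fold changes ran from -0.92 to -0.37 for Cd34, -1.11 to -0.59 for Ctgf, -0.53 to -0.39 for Lgr5, -0.49 to -0.064 for Nfatc1, -0.20 to -0.089 for Postn, 0.15 to 0.35 for Epcam, 0.053 to 0.73 for Lgr6, 0.063 to 0.32 for Lrig1, 0.13 to 0.43 for Plet1 and 1.41 to 2.43 for Ly6a. The lowest size of Cd34, Ctgf, Lgr6 and Postn came without Control 2, of Nfatc1 without Control 3, and of Epcam, Lrig1 and Plet1 without PRC1 i2KO 1. Ly6a rests on 10 counts in Control 3, the shallowest library.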

Other observations

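Dividing counts by TPM gives the mean transcript length that the deposited estimates imply, here scaled to a Control mean of 1. This length stayed between 0.984 and 1.02 for Ctgf and between 0.9899 and 1.00 for Cd34 in all 5 libraries. For Plet1 it was 1.11, 1.44 and 1.10 in PRC1 i2KO 1, 2 and 3, against 0.872 and 1.13 in Control 2 and 3. For Lrig1, the junctional zone marker, it was 0.773, 0.820 and 0.847 in PRC1 i2KO, against 0.792 and 1.21 in Control. Control 2 lay inside the PRC1 i2KO range for Lrig1 and Control 3 inside it for Plet1.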
